A study of Mus musculus with 102 samples.

Results

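Triple-marked distal peaks are H3K4me1 peaks that the authors placed in their distal group, away from promoters, and that also overlap a peak of H3K4me2 and a peak of H3K4me3. An overlap of 1 bp with each was enough. In mouse embryonic stem (ES) cells 17160 of 57381 distal H3K4me1 peaks met this rule, which is 29.9% of the distal peaks and 20.9% of all 82053 H3K4me1 peaks. Another 52 distal peaks overlapped H3K4me3 without H3K4me2 and were left out by the rule. The presence of peaks in the 3 tables chose the set, and their listed values did not enter. Presence itself can depend on the level in either line, since it is not given in which line a peak was called.

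Methylation of lysine 4 of histone H3 (H3K4) occurs in steps, from mono- (H3K4me1) to di- (H3K4me2) to trimethylation (H3K4me3), and different methyltransferase complexes favour different steps. H3K4me1 with little H3K4me3 is the usual mark of enhancers, while H3K4me3 is concentrated at the start sites of active or poised promoters. MLL3 (KMT2C) and MLL4 (KMT2D) are the main enzymes that place H3K4me1 at enhancers, and the SET1 and MLL1/2 complexes place most H3K4me3. Distal sites that carry H3K4me3 beside H3K4me1 lie between these textbook classes. They can be strong enhancers or start sites that an annotation does not list.

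The study asked by chromatin immunoprecipitation with sequencing (ChIP-seq) which proteins sit with H3K4me1 at enhancers and which depend on it. The lines compared here were R1 ES cells of strain 129SV, either wild-type or with the genotype MLL3/4 double catalytic dead, in which both proteins lack enzyme activity (called catalytic-dead cells). Both were grown on mouse embryonic fibroblast (MEF) feeder cells in serum-free medium with LIF, a cytokine that keeps ES cells undifferentiated. Whether feeders were removed before fixation, and whether each line is 1 clone, is not given in the sources used here. A second set of data came from 129/Ola ES cells with no allele named in the labels, kept on feeders and passaged without them before harvest. In those cells 17 proteins, H3K27ac, H3K4me1 and H3K4me3 were mapped.

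The labels give 12 libraries of H3K4 methylation in R1 cells, 2 for each mark and line, but the peak tables hold 1 value per line and mark. That value is a fold enrichment, and neither the depth nor the spread between libraries is known. There is therefore no replicate check and no test between the lines, and every difference below is a description of these values. A peak is here called decreased or increased where the catalytic-dead value was at most 0.5 times or at least 2 times the wild-type value, which is the authors' own rule. For H3K4me2 and H3K4me3 the value of the overlapping peak with the longest overlap (the partner peak) was used. In all 3 tables the values had to be put back in step with the positions. In the deposited layout the log2 ratios of H3K4me1 and H3K4me2 at these peaks had a Spearman's rho of 0.03 over the 15923 peaks of chromosomes 2 to 19. In the restored order it was 0.79 there, and on chromosome 1, where both layouts coincide, it was 0.79 over 1003 peaks.

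The triple-marked peaks were wide, with a median width of 2374 bp (quartiles 1483 and 4020 bp), against 1726 bp at distal peaks with H3K4me2 and no H3K4me3 and 1192 bp at distal peaks without H3K4me2. H3K4me3 covered a median of 56.0% of the peak (quartiles 39.3% and 72.9%), and H3K4me2 covered 77.7%. Most peaks, 15619, held a single H3K4me3 peak and 1541 held 2 or more, up to 7. The smallest overlap was 4 bp for H3K4me3 and 10 bp for H3K4me2.

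Some of the peaks share their H3K4me3. The 17160 peaks have 15991 different partner peaks, and 1115 partners are shared by 2284 of them. Some also join proximal peaks. For 2264 peaks (13.2%) the partner also reached under a proximal H3K4me1 peak, and for 2764 (16.1%) the authors listed the H3K4me3 partner itself as proximal. At 14039 peaks (81.8%) every overlapping H3K4me2 and H3K4me3 peak was distal, and at 3121 (18.2%) at least 1 was proximal. Seen from H3K4me3, 13384 of the 18030 distal H3K4me3 peaks (74.2%) and 2607 proximal ones (15.8%) were the partner of a triple-marked peak.

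The fold enrichment of H3K4me1 at the triple-marked peaks was on the whole higher, not lower, in catalytic-dead cells. It is a relative value whose reference is not given, so a difference between the lines need not be one in the amount of the mark. The median fold enrichment was 3.02 in wild-type cells (quartiles 2.57 and 3.47) and 3.61 in catalytic-dead cells (2.82 and 4.47). The median log2 ratio, with wild-type as the denominator here and throughout, was 0.30 (-0.26 and 0.78), and 64.1% of the peaks had a higher value in catalytic-dead cells. Values ran from 0.611 to 6.14 in wild-type cells and from 0.130 to 9.09 in catalytic-dead cells. Over all chromosomes the sign of the median rests on the restored order, since it was -0.13 in the deposited layout. On chromosomes 1, X and Y, where both layouts coincide, the median was 0.37 over 1237 peaks. In the restored order it was 0.51 over all triple-marked peaks when the median of all H3K4me1 peaks was set to 0.

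Few of these peaks passed the size rule for H3K4me1. Of 17160, 893 (5.20%) were called decreased, against 28.4% of all peaks in the table, and 2389 (13.9%) increased, against 15.2%. Decreases were thus less frequent than over the table, and increases close to the table's share. Decreases made up 27.2% of the calls. They made up 11.3% after the median of all peaks, -0.21, was set to 0, and 16.8% after the lines were given the same distribution of values. The increased peaks numbered 4183 and 3742 under those scalings, and the decreased peaks 534 and 755. In the deposited layout 4514 were decreased. The balance turned with a stricter fold. At 3-fold 194 of 17160 were decreased and 129 increased, so that decreases made up 60.1% of the calls. Over all 82053 H3K4me1 peaks decreases led at both folds, with 23336 against 12443 at 2-fold. At 3-fold 12409 of all peaks (15.1%) were decreased and 931 (1.13%) increased.

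The same values at neighbouring classes of peaks give the scale. At the 13992 distal peaks with H3K4me2 and no H3K4me3 the median H3K4me1 was 3.20 in wild-type cells against 2.00 in catalytic-dead cells. The log2 ratio there was -0.74, and 38.4% were called decreased and 2.62% increased. At the 26177 distal peaks without H3K4me2 the medians were 2.98 and 1.32, the log2 ratio -1.21, and 58.8% were decreased and 1.85% increased. At the 20560 proximal peaks with H3K4me3 they were 2.56 and 4.65, the log2 ratio was 0.93, and 43.8% were increased. These proximal peaks held 9007 of the 12443 increased peaks of the whole table. The median log2 ratio of the triple-marked distal peaks lay between those of proximal peaks and of the other distal peaks.

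**Figure D1:**
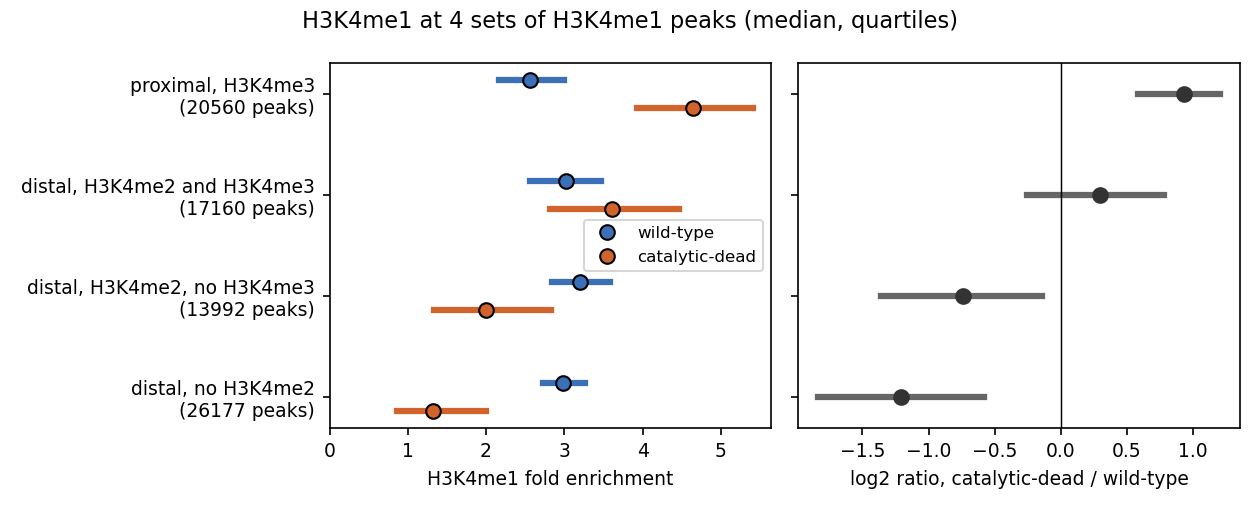
H3K4me1 fold enrichment in both lines (left, horizontal axis) and its log2 ratio (right, horizontal axis) at 4 sets of H3K4me1 peaks. Points are medians over peaks and bars run from the lower to the upper quartile. The triple-marked distal set, with H3K4me2 and H3K4me3, has medians of 3.02 and 3.61, and the distal sets without H3K4me3 have lower medians in catalytic-dead than in wild-type cells.

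The gap to distal peaks with H3K4me2 alone was 1.04 on the log2 scale. It was above 0 on 19 of 19 autosomes, from 0.89 to 1.23, and was 0.16 in the deposited layout. Among peaks of similar wild-type H3K4me1 it was smallest in the quartile group with the least H3K4me1, 0.26, and 0.82, 0.86 and 0.84 in the higher groups. The wild-type value that forms these groups is also the denominator of the ratio, so the gaps are not independent of the grouping. Values just inside and just outside the rule lay closer together. The 32 triple-marked peaks that touched H3K4me3 over at most 50 bp had medians of 2.99 and 1.90, a log2 ratio of -0.72. The 49 distal peaks with H3K4me2 whose nearest H3K4me3 peak lay at most 50 bp away had medians of 3.14 and 1.68.

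Along the genome the median log2 ratio of the triple-marked peaks was above 0 on 19 of 19 autosomes, from 0.20 on chromosome 16 to 0.51 on chromosome 13. It was below that of proximal peaks with H3K4me3 on each of them. Chromosome 13 also had the highest share of increased peaks among autosomes, 23.0% of 768 peaks. On the X chromosome the 234 triple-marked peaks made up 44.7% of distal peaks, against 26.5% to 34.5% on autosomes. Their median log2 ratio was 0.64 and 31.6% were called increased, while the X-linked distal peaks with H3K4me2 and no H3K4me3 had a median of -1.17, below the autosomal range of -0.85 to -0.63.

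**Figure D2:**
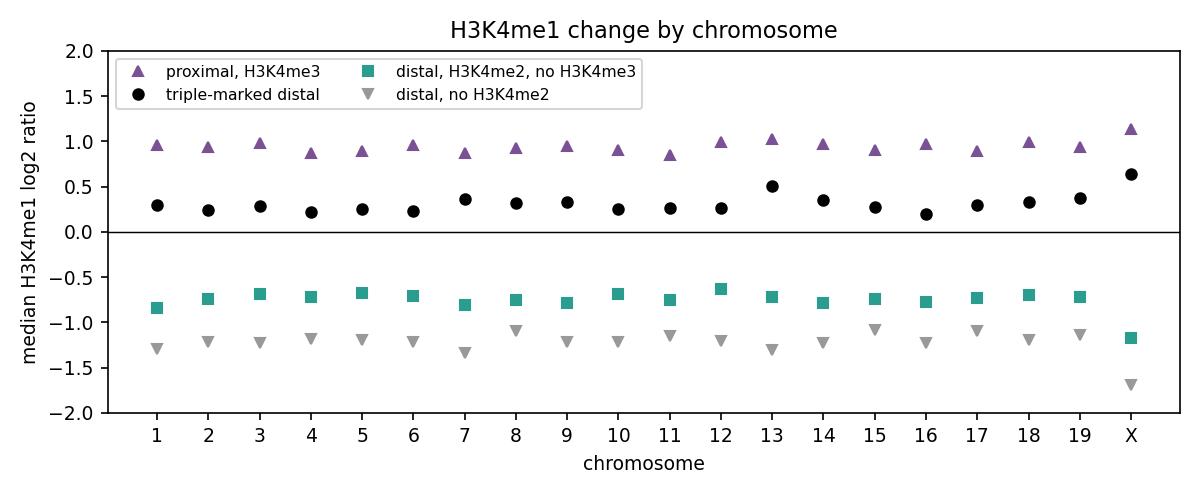
Median H3K4me1 log2 ratio, catalytic-dead divided by wild-type (vertical axis) on each chromosome (horizontal axis) for 4 sets of H3K4me1 peaks. Each point is the median over the peaks of a set on a chromosome. The triple-marked distal peaks lie between 0.20 and 0.51 on autosomes and at 0.64 on X, below the proximal peaks and above both other distal sets.

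H3K4me2, the middle step, had a median log2 ratio close to 0 at these peaks, with a wider spread to lower than to higher values. The median fold enrichment of the partner was 6.20 in wild-type cells (quartiles 4.88 and 8.16) and 5.72 in catalytic-dead cells (3.59 and 8.74), with a median log2 ratio of -0.08 (-0.59 and 0.23). The median was below 0 on 19 of 19 autosomes, from -0.14 to -0.01, but it was 0.05 once the median of all H3K4me2 peaks, -0.13, was set to 0. Of the peaks, 2336 (13.6%) had a partner called decreased, against 23.0% of all H3K4me2 peaks, and 214 (1.25%) increased, against 1.91%. Decreases made up 91.6% of the calls, or 65.2% (962 decreased and 514 increased) with the same distribution of values in both lines. Over all 53501 H3K4me2 peaks 12302 were decreased and 1023 increased, so decreases led there too. At 3-fold 924 of 17160 were decreased and 29 increased, against 7270 (13.6%) and 157 (0.293%) of all H3K4me2 peaks. At distal peaks with H3K4me2 and no H3K4me3 the H3K4me2 medians were 3.58 and 1.67, the log2 ratio -1.14, and 54.3% were decreased.

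H3K4me3 itself had nearly the same median in both lines. The partner's median was 5.11 in wild-type cells (quartiles 3.63 and 9.64) and 5.34 in catalytic-dead cells (3.76 and 9.63), with a median log2 ratio of -0.02 (-0.30 and 0.30). That median has no stable sign: 7 autosomes lay above 0 and 12 below, between -0.08 and 0.03. Of the peaks, 787 (4.59%) had a partner called decreased, against 4.48% of all H3K4me3 peaks, and 763 (4.45%) increased, against 3.15%. Decreases made up 50.8% of the calls, or 32.5% (506 decreased and 1050 increased) with the same distribution of values in both lines. At 3-fold 263 of 17160 were decreased and 118 increased, so that decreases made up 69.0%. Over all 34553 H3K4me3 peaks 476 (1.38%) were decreased and 207 (0.599%) increased at 3-fold, so this lean to decreases was not particular to the set. Most of these calls were at weak peaks. Without the 25% of H3K4me3 peaks with the lowest mean of both lines, 153 decreases and 270 increases were left. For comparison, proximal H3K4me1 peaks with H3K4me3 had H3K4me3 medians of 14.2 in both lines.

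The level of H3K4me3 in wild-type cells was associated with the direction of the H3K4me1 difference at triple-marked peaks. The peaks were sorted into 10 bins of 1716 by the wild-type H3K4me3 of the partner, whose medians ran from 2.48 in the lowest bin to 17.6 in the highest. In the lowest bin H3K4me1 was 3.22 in wild-type cells against 2.92 in catalytic-dead cells, with a log2 ratio of -0.20. In the highest it was 2.69 and 4.77, a log2 ratio of 0.87. Wild-type H3K4me1 was thus lowest, and catalytic-dead H3K4me1 highest, where H3K4me3 was strongest.

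From the lowest to the highest bin the median H3K4me1 log2 ratios were -0.20, -0.20, -0.08, -0.00, 0.13, 0.24, 0.37, 0.60, 0.80 and 0.87. Called decreases made up 10.7% of the lowest bin and 0.350% of the highest, and called increases 7.34% and 36.2%. H3K4me2 took the same course, with a median log2 ratio of -0.41 in the lowest and 0.18 in the highest bin. The highest minus the lowest bin was 1.08 for H3K4me1, above 0 on 19 of 19 autosomes (0.85 to 1.28), and 0.19 in the deposited layout. Sorted the same way, the 14039 peaks whose overlapping peaks were all distal ran from -0.20 to 0.85, so the order was also there without proximal partners.

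H3K4me3's own log2 ratio cannot be read in the same way, because the wild-type value that sorts the peaks is also its denominator. In the lowest bin its medians were 2.48 and 4.16, and 38.1% were called increased. In the other bins the medians of both lines differed less. Values of different marks are not fully independent either: each line has a single set of input libraries in the labels, and how much of it enters each fold enrichment is not stated.

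**Figure D3:**
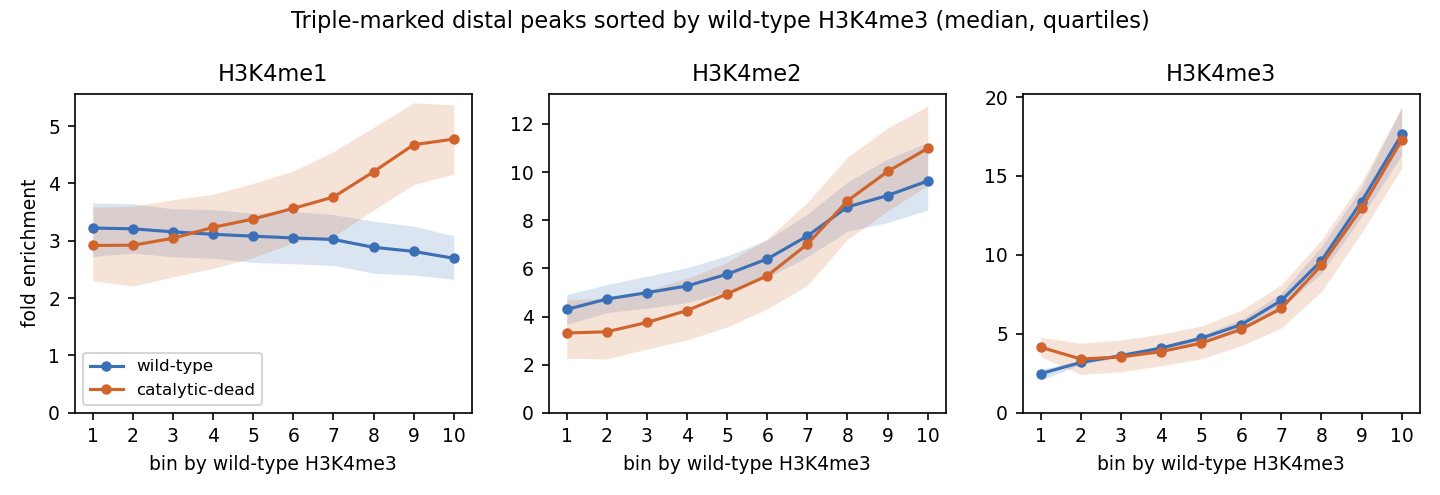
Fold enrichment of H3K4me1, H3K4me2 and H3K4me3 (vertical axes) in triple-marked distal peaks sorted into 10 bins by wild-type H3K4me3 (horizontal axes, lowest on the left). Lines join medians over the 1716 peaks of a bin, and shaded bands run between quartiles. Catalytic-dead H3K4me1 goes from 2.92 to 4.77 across the bins while wild-type H3K4me1 goes from 3.22 to 2.69.

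How much of the H3K4me1 peak H3K4me3 covered gave a similar order. In 5 bins of 3432 peaks, from least to most covered, the median coverage was 26.6%, 43.0%, 56.0%, 69.2% and 87.4%. The median H3K4me1 log2 ratios were -0.38, 0.05, 0.32, 0.57 and 0.68. Called decreases made up 16.2% of the least covered bin and 1.84% of the most covered, and called increases 4.40% and 24.9%. Level and coverage were both associated with H3K4me1. The 5267 peaks below the median in both had a log2 ratio of -0.28, and the 5267 above the median in both had 0.70. The 3313 peaks with weak H3K4me3 and high coverage had 0.31, and the 3313 with strong H3K4me3 and low coverage 0.36. The ratio varied less with width, with 0.51 in the narrowest of 5 bins and 0.18 in the widest.

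Peaks that overlap a proximal peak had more H3K4me3 and a larger H3K4me1 ratio. The 3121 with a proximal overlapping peak had a wild-type H3K4me3 of 14.6, H3K4me1 medians of 2.94 and 4.61 and a log2 ratio of 0.71, and 24.8% were called increased. The 14039 without had a wild-type H3K4me3 of 4.55, H3K4me1 medians of 3.04 and 3.43 and a log2 ratio of 0.19, and 11.5% were increased. The median log2 ratio of the wholly distal peaks was also above 0, unlike that of distal peaks without H3K4me3.

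Triple-marked peaks also lay closer to proximal peaks. The median gap to the nearest proximal H3K4me1 peak was 13.3 kb, against 21.4 kb at distal peaks with H3K4me2 and no H3K4me3, and 32.1% lay within 5 kb, against 18.2%. Their H3K4me1 log2 ratio was 0.49 within 5 kb, 0.19 from 5 to 20 kb, 0.17 from 20 to 100 kb and 0.26 beyond 100 kb. For wholly distal peaks it was 0.25, 0.19, 0.15 and 0.23 in the same bins. At distal peaks with H3K4me2 and no H3K4me3 it was -0.60, -0.64, -0.77 and -1.18. The median ratio thus varied little with distance at the triple-marked peaks beyond 5 kb, and was lower with distance at peaks without H3K4me3. Called decreases were more frequent with distance in both sets. They made up 2.96%, 4.98%, 6.58% and 8.87% of the triple-marked peaks, and 31.2%, 33.4%, 39.1% and 56.2% of those without H3K4me3. Called increases made up 17.9%, 10.8%, 11.9% and 16.0% of the triple-marked peaks. Over all H3K4me1 peaks 28.4% were decreased and 15.2% increased.

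Considered together, 11539 triple-marked peaks (67.2%) passed the size rule for none of the 3 marks. The largest class past the rule held 2194 peaks (12.8%) that were increased in H3K4me1 alone, followed by 1234 (7.19%) decreased in H3K4me2 alone. All 3 marks were decreased at 282 peaks and all 3 increased at 72. The log2 ratios of H3K4me1 and H3K4me2 had a Spearman's rho of 0.79 over the 17160 peaks, H3K4me2 and H3K4me3 0.38, and H3K4me1 and H3K4me3 0.15. Between the lines the rank order of peaks had a rho of 0.79 for H3K4me3, 0.72 for H3K4me2 and -0.28 for H3K4me1. In wild-type cells H3K4me1 and H3K4me3 levels had a rho of -0.22, and in catalytic-dead cells 0.62. These rho values describe peaks, which share libraries and, in part, partner peaks.

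The other marks are given for the decreased and the increased peaks in turn. Of the 893 with decreased H3K4me1, 84.4% also had decreased H3K4me2 and 0 had increased H3K4me2, while 33.1% had decreased H3K4me3 and 58 (6.49%) increased H3K4me3. H3K4me1 there was 3.53 in wild-type cells against 1.43 in catalytic-dead cells, the wild-type H3K4me3 was 3.52, and H3K4me3 covered 29.4% of the peak (medians). Of the 2389 with increased H3K4me1, 93.5% had unchanged H3K4me2, 6.49% increased and 0 decreased H3K4me2, and 95.3% had unchanged H3K4me3. Their H3K4me1 was 2.14 and 4.98, their wild-type H3K4me3 11.1, and H3K4me3 covered 68.9%. By these medians the increased peaks had stronger H3K4me3 over a larger share of the peak than the decreased peaks.

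The 5 peaks with the strongest wild-type H3K4me3 illustrate the upper end (positions are in mm9, as the authors' table gives them). The first, on chr17:4996899-5000511, had H3K4me3 of 29.2 in wild-type cells against 27.2 in catalytic-dead cells, while its H3K4me1 was 1.93 and 4.46. The second, on chrX:17742172-17743057, had H3K4me3 of 28.7 and 26.0 and H3K4me1 of 1.67 and 4.63. Both were called increased in H3K4me1, and their H3K4me3 stayed within the size rule. The other 3, on chr13:120218802-120221662, chrX:91364307-91366786 and chr17:63845561-63848568, had H3K4me3 of 27.8 to 28.4 in wild-type and H3K4me1 log2 ratios of 0.80 to 0.89. All 5 partners were listed as proximal.

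The largest H3K4me1 decreases were named among the 8580 peaks whose mean H3K4me1 of both lines was at or above the set's median, 3.29. All 5 named had catalytic-dead values below 3.29, from 1.54 to 1.98, so the wild-type value carried each over the limit. At chr13:72953103-72956402 H3K4me1 was 6.04 in wild-type cells against 1.54 in catalytic-dead cells, with a log2 ratio of -1.97. Its H3K4me2 was 5.71 and 0.836, and its H3K4me3 2.84 and 0.679, so all 3 marks were decreased. At chr4:136285592-136291225 H3K4me1 was 5.01 and 1.87 and H3K4me2 7.53 and 1.57, while H3K4me3 was 3.89 and 2.19, a log2 ratio of -0.83. The next 3, at chr15:79987546-79992777, chr1:135292795-135294296 and chr13:51823217-51828633, had H3K4me1 log2 ratios of -1.40, -1.38 and -1.37. They differed in H3K4me3, with log2 ratios of -0.54, 0.26 and -1.96. All 5 lay on 129/Ola regions with H3K4me1 and without H3K4me3.

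The 5 largest H3K4me1 increases under the same limit were at narrower peaks, 716 to 1205 bp wide. Wild-type H3K4me1 was below 3.29 at all 5, so the catalytic-dead value carried each over the limit. At chr6:16308930-16309728 H3K4me1 was 1.21 in wild-type cells against 6.03 in catalytic-dead cells, a log2 ratio of 2.32. Its H3K4me2 was 3.19 and 10.4 and its H3K4me3 3.86 and 8.08. At chr10:114889412-114890603 it was 1.34 and 5.37, with H3K4me2 of 2.69 and 9.76 and H3K4me3 of 2.33 and 6.93. All 3 marks were increased at both peaks, and no 129/Ola region was listed at either. At chr3:69908082-69908798, with H3K4me3 of 11.6 and 14.8, and at chrX:132650423-132651273, with 9.06 and 12.7, only H3K4me1 passed the size rule, with log2 ratios of 1.91 and 1.88. The other peak, at chr7:16646512-16647717, had log2 ratios of 1.91 for H3K4me1 and 1.30 for H3K4me2.

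H3K4me3 changes were named where the partner's mean of both lines was at or above the set's median of 5.13. In each named case the lower of both values was below 5.13, so the higher value carried the partner over the limit. The largest decrease was a single H3K4me3 peak, 9.13 in wild-type cells against 1.23 in catalytic-dead cells, shared by the neighbours chr3:88364812-88373962 and chr3:88374151-88375658. H3K4me2 there was 6.21 and 1.45, while H3K4me1, 3.44 and 2.15 at the first and 2.42 and 1.55 at the second, stayed inside the size rule. At chr7:27170915-27172012 H3K4me3 was 9.24 and 1.62, and H3K4me1 2.94 and 0.657. Increases were at chr9:91299215-91301545, where H3K4me3 was 2.44 and 9.58 and H3K4me1 2.26 and 5.08, and at chr9:41136865-41139086, with 2.67 and 10.2 for H3K4me3 and 0.771 and 3.90 for H3K4me1. The third, chr16:21701489-21702030, differed: H3K4me3 was 3.12 and 11.2, H3K4me2 5.43 and 5.41, and H3K4me1 3.92 and 1.96.

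The 3 widest peaks spanned 42357, 33636 and 33400 bp, at chr8:123047787-123090144, chr9:114438778-114472414 and chr2:173068217-173101617. Their H3K4me1 was 4.34 to 4.54 in wild-type and 3.68 to 5.05 in catalytic-dead cells, with log2 ratios of -0.24, 0.20 and -0.02. H3K4me3 of their partners was 12.0 to 16.1 in wild-type cells. None of the 3 passed the size rule for any mark.

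The 129/Ola tables sort regions by which H3K4 mark they hold, and so show what these sites carry in a second ES line. H3K27ac, the acetylation of active enhancers and promoters, and 17 proteins are listed at those regions where their enrichment was at least 1.5-fold. Of the triple-marked R1 peaks, 6533 (38.1%) overlapped a region with both H3K4me1 and H3K4me3, 6050 (35.3%) a region with H3K4me1 only and 1760 (10.3%) a region with H3K4me3 only, and 2817 (16.4%) overlapped none. An overlap of 1 bp was enough, and the both-mark share was 19.6% where the region had to cover at least 50% of the peak. At distal R1 peaks with H3K4me2 and no H3K4me3 these shares were 9.43%, 60.2%, 0.193% and 30.2%. With 1 bp of overlap, more triple-marked peaks overlapped a 129/Ola region with H3K4me3 than one without it. The cell line and the way regions were listed differ between the tables and cannot be told apart here.

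The class of the 129/Ola region was associated with the H3K4me1 ratio in the R1 lines. Triple-marked peaks on H3K4me3-only regions had H3K4me1 of 2.47 in wild-type cells against 4.62 in catalytic-dead cells, with a log2 ratio of 0.96, and 45.0% were increased. On both-mark regions the medians were 3.04 and 4.08, the log2 ratio 0.47, and 14.5% were increased. On H3K4me1-only regions they were 3.31 and 2.98, the log2 ratio -0.19, and 10.2% were decreased and 2.86% increased. Peaks with no listed region had 2.64 and 3.36, a log2 ratio of 0.39. The region class goes together with proximal overlapping peaks. Of the peaks with a proximal overlapping peak 30.8% lay on H3K4me3-only regions, against 5.70% of the wholly distal peaks. On H3K4me1-only regions the shares were 22.8% and 38.0%. The part of proximal overlapping peaks in the ratios by region was not tested.

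Within the H3K4me1-only regions the ratio differed with acetylation. The 3620 peaks whose region listed H3K27ac had a log2 ratio of -0.31 and the 2430 without it 0.00. The authors' list of active enhancers held 2351 triple-marked peaks (13.7%), with H3K4me1 of 3.49 and 2.83 and a log2 ratio of -0.33. Their list of poised enhancers held 1931 (11.3%), with 3.10 and 3.22 and a log2 ratio of 0.02. H3K4me2 was lower in both, with log2 ratios of -0.69 and -0.26, while H3K4me3 had medians of -0.03 and 0.05. Of the peaks with decreased H3K4me1, 29.0% were on the active list, against 0.460% of those with increased H3K4me1.

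**Figure D4:**
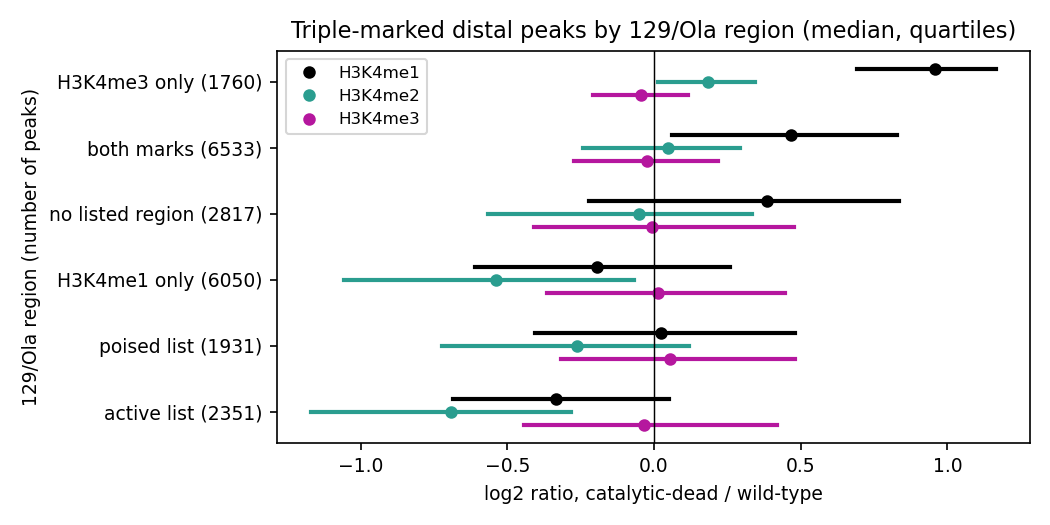
Log2 ratio, catalytic-dead divided by wild-type (horizontal axis), of 3 marks at triple-marked distal peaks, by the 129/Ola region they overlap (vertical axis, number of peaks in brackets). Points are medians and bars run between quartiles. The active and poised lists are subsets of the H3K4me1-only regions. H3K4me1 runs from -0.33 on the active list to 0.96 on H3K4me3-only regions, while H3K4me3 stays near 0.

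At both-mark regions somewhat fewer proteins were listed under triple-marked peaks than over the class. The 6206 both-mark regions under them listed a mean of 8.79 of the 17 proteins, against 9.22 over all 18425 both-mark regions. The whole class includes these regions and also proximal sites. Of the 20560 proximal H3K4me1 peaks with H3K4me3, 45.9% lay on both-mark regions. The part of proximal sites in the differences was not tested. Their median width was 1303 bp, against 1085 bp. In 4 bins of width, from narrow to wide, the means were 8.65, 9.43, 9.16 and 8.05 under triple-marked peaks and 8.80, 9.76, 10.4 and 8.81 at the other both-mark regions. H3K27ac was listed at 89.4% and 88.3%. Of the 17 proteins 3 were listed more often and 14 less often, with differences of -7.31 to 2.51 percentage points. SMC3, a cohesin subunit, was at the upper end with 59.7% against 57.2%. BAZ1A, an accessory subunit of ISWI chromatin remodelers, had 31.0% against 38.3%, and PHF5A, a splicing factor subunit, 25.3% against 31.6%.

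At H3K4me1-only regions H3K27ac was listed at 59.1% of the 5805 under triple-marked peaks, against 46.4% of all 41819, with a mean of 2.76 proteins against 3.27. These regions were much wider, with a median of 1518 bp against 523 bp. Within 4 bins of width, from narrow to wide, H3K27ac was listed at 39.5%, 40.0%, 52.1% and 70.0% of the regions under triple-marked peaks and at 36.7%, 39.9%, 47.7% and 56.7% of the others, so most of the difference lay in the widest bin. The mean number of proteins was 4.04, 3.49, 2.98 and 2.26 against 3.96, 3.73, 3.13 and 2.29, closer than the means over the whole class and higher under triple-marked peaks in the narrowest bin. Of the 17 proteins 4 were listed more often and 13 less often. SMC3 was again the protein with the largest positive difference, 27.5% against 24.9%, and BAZ1A the one with the largest negative difference, 8.32% against 16.1%. At H3K4me3-only regions SMC3 alone was listed more often, 59.5% of 1619 against 54.3% of 7453. These regions were also wider, with a median of 1984 bp against 1505 bp. The part of width in the shares of single proteins was not tested in any class.

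**Figure D5:**
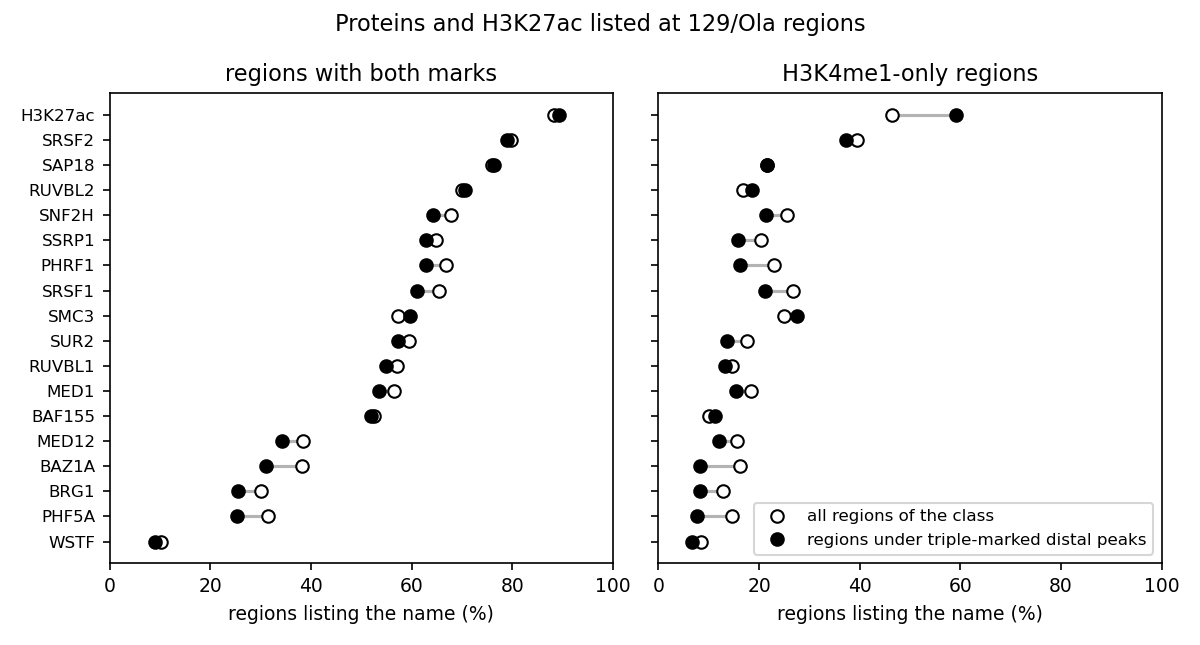
Share of 129/Ola regions that list H3K27ac or each of 17 proteins (horizontal axis, percent) among both-mark regions (left) and H3K4me1-only regions (right). Open circles are all regions of the class and filled circles those under triple-marked distal peaks. H3K27ac is at 59.1% against 46.4% in H3K4me1-only regions, and most proteins have lower shares under the triple-marked peaks.

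The proteins also varied with the H3K4me1 class of the peak above them. Both-mark regions under the 945 increased peaks listed a mean of 9.59 proteins, against 8.66 under unchanged and 8.36 under the 72 decreased peaks. SMC3 was listed at 68.1%, 58.6% and 48.6% of these regions, BAZ1A at 40.2%, 29.3% and 27.8%, and H3K27ac at 84.9%, 90.1% and 94.4%. Not every protein had the order of the means: SRSF2 was listed at 77.4%, 79.1% and 87.5%. The median widths of these both-mark regions were 1076.5, 1380 and 1143 bp, and the part of width was not tested. In H3K4me1-only regions the order of the means was not the same: 2.19 proteins under increased, 2.81 under unchanged and 2.45 under decreased peaks. H3K27ac was listed there at 66.2% under decreased, 59.8% under unchanged and 16.3% under the 173 increased peaks. Their median widths were 1647, 1554 and 594.5 bp, and the part of width in these shares was not tested.

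The 3 peaks named by number of proteins, with ties taken by H3K27ac, lay on regions that listed all 17. One region was an H3K4me3-only region under chr14:37778226-37781380, where H3K4me1 was 2.71 and 3.92 and H3K4me3 12.3 and 13.8. The other was a both-mark region under the neighbouring peaks chr7:108027677-108028266 and chr7:108028419-108028978, which share an H3K4me3 peak of 7.17 and 4.16 and had H3K4me1 of 2.16 and 3.18 and of 3.03 and 3.57. None of these peaks passed the size rule for any mark.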

How the data were processed

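ChIP-seq tables of mouse ES cells were used. Per the submitters' processing notes the build was mm9, and for the R1 libraries the notes name MACS2 2.1.0.20150731, BWA 0.7.13-r1126, deepTools 2.5.1 and 2.5.3 and Picard 2.11.0, without their roles. For the 129/Ola libraries they name Bowtie, Picard and MACS2. The authors deposited fold enrichment (a ratio, headed FE) of H3K4me1, H3K4me2 and H3K4me3 peaks, 1 value per line, with a distal or proximal group and a class of change. The reference of the enrichment, the peak calling, the pooling of libraries and the distance limit of proximal peaks were each not given in the sources used here. Log2 enrichment of proteins per 129/Ola region was also deposited by the authors. Of its 31 names, 11 matched no library in the labels and were not used. No genome or annotation of mm9 was used here, so no gene, sequence or marker check is given, and starts are printed as the table has them, whose base is not stated.

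Score columns were read in number order of the chromosomes and positions in text order, a layout inferred from the values and stated in no file. Log2 ratios were taken without a pseudocount. Overlaps of at least 1 bp were found with bedtools 2.31.1 and summaries made with pandas 2.3.3 and numpy 2.4.6. Each class of change was recomputed from both values, with 0 exceptions. A peak on several 129/Ola regions was given the region with the longest overlap. The calculations were tested on simulated data. Named peaks were the 5 with the highest partner H3K4me3, the 5 largest H3K4me1 decreases and increases, the 3 largest H3K4me3 decreases and increases (both among peaks at or above the median mean of both lines), the 3 with most proteins and the 3 widest. With 1 value per line and mark no test was made. Alternatives were the deposited layout, other scalings, a pseudocount, limits on low values, coverage and partner, and a stricter fold. The set, lists and alternatives were chosen with earlier results of these data known.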

Additional observations from a re-analysis of the deposited data

How the results depend on the processing

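The tables hold no libraries and no depth, so the error of no value is known and no result was tested between the lines. No paired analysis was possible because each line has 1 value per mark, which also left no replicate to omit. Of 70 alternative values, 16 stayed near the reported one, 48 moved and 6 changed sign. For medians, gaps and shares, near meant inside a 95% interval computed over peaks as if they were independent. For the H3K4me1 median log2 ratio it ran only from 0.28 to 0.31, so small shifts were labelled moved. Counts of called peaks were judged by their fold difference from the reported count, and the mean number of proteins had no interval. The labels therefore do not measure error between libraries. Results in the deposited layout are no independent check, since most peaks carry another peak's value there if the restored order is right. In each case below the cause was not tested, apart from fewer peaks passing a stricter fold or a limit.

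The H3K4me1 median log2 ratio, 0.30, was -0.13 in the deposited layout, 0.37 on chromosomes 1, X and Y, 0.51 with median centring, 0.18 with quantile normalization, 0.23 with a pseudocount of 1, 0.32 after dropping the 25% with the lowest values, 0.53 at peaks covered to at least 50% by H3K4me3 and 0.19 where all overlapping peaks were distal. In the same order the H3K4me2 median, -0.08, was -0.13, -0.047, 0.045, -0.12, -0.071, -0.057, 0.0092 and -0.17, and it was -0.069 with the highest overlapping peak. The H3K4me3 median, -0.02, was -0.031 in the deposited layout, 0.023 on chromosomes 1, X and Y, 0.015 with centring, -0.0054 with quantile normalization, 0.0067 without the lowest 25%, -0.033 at well covered and -0.0058 at wholly distal peaks.

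Decreased H3K4me1 peaks, 893, numbered 194 at 3-fold, 534 with centring, 592 without the lowest 25% and 4514 in the deposited layout. Increased ones, 2389, numbered 129 at 3-fold, 4183 with centring and 3742 with quantile normalization. Decreased H3K4me2, 2336, became 924 at 3-fold, 962 with quantile normalization and 3882 in the deposited layout. Increased H3K4me2, 214, became 29 at 3-fold, 350 with centring and 514 with quantile normalization. Decreased H3K4me3, 787, became 263 at 3-fold, 506 with quantile normalization and 153 without the lowest 25%. Increased H3K4me3, 763, became 118 at 3-fold and 270 without the lowest 25%.

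The gap of 1.04 to distal peaks with H3K4me2 and no H3K4me3 was 0.16 in the deposited layout, 0.83 without the lowest 25%, and 0.26, 0.82, 0.86 and 0.84 in 4 quartile groups of wild-type H3K4me1. The share on both-mark regions, 38.1%, was 19.6% where the region had to cover at least 50% of the peak. For the step from the lowest to the highest H3K4me3 bin, 1.08, the alternatives were chosen after seeing the data. It was 0.19 in the deposited layout, 1.20 on chromosomes 1, X and Y, 0.68 at peaks covered to at least 50% and 0.99 at peaks with a single unshared H3K4me3 peak. With a log2 limit of 1 the both-mark regions listed 3.91 proteins instead of 8.79.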
